A study of Mus musculus with 12 samples.

Results

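The Golgi glycosyltransferases and mannosidases are a group of 76 protein-coding mouse genes, among 21184 protein-coding genes and 29879 genes of all kinds with counts. The group was chosen by gene symbol, as every protein-coding symbol that begins with Galnt, St3gal, St6gal, St8sia, B3galt, B4galt, B3gnt, Mgat, Man1a, Man1b, Man1c or Man2a. The symbols use no measured value, but the group was picked with results of these same libraries in view, and which values led to it is not recorded. Its counts of calls are therefore a description. RNA was sequenced from mouse cortex at postnatal day 21 in 4 groups of 3 libraries. All 12 libraries, controls included, came from the SNAP25 BacTRAP transgenic line, in which a ribosomal protein fused to eGFP is made under control of the neuronal gene Snap25. WCH is RNA of the cortex itself, and TRAP is RNA bound to eGFP-tagged ribosomes that were immunoprecipitated from cortex. SNF is RNA of the SN band, the synaptic band, taken from a density gradient of sucrose and percoll with no immunoprecipitation. SynapTRAP is RNA immunoprecipitated through eGFP from that band. The labels give the replicates as separate samples without saying that they were separate animals, so every p-value measures the spread between samples, which may be technical.

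Proteins and lipids that enter the secretory pathway receive sugars one at a time from enzymes anchored in the Golgi membrane. The Galnt enzymes start mucin-type O-glycans by placing N-acetylgalactosamine on serine or threonine. On N-glycans, Man1 and Man2a mannosidases trim the mannose core, Mgat enzymes add N-acetylglucosamine branches, B4galt and B3galt enzymes add galactose, B3gnt enzymes lengthen the chains, and the St3gal, St6gal and St8sia enzymes cap them with sialic acid. Several members work on glycolipids instead, and in brain the sialylated glycolipids called gangliosides and the polysialic acid on the adhesion molecule NCAM are well-known products. Most of these enzymes are type II membrane proteins, with a short cytosolic tail, a single hydrophobic anchor near the N-terminus and the catalytic domain in the lumen, so their mRNAs are translated at the endoplasmic reticulum.

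The anchor is visible at the start of the coding sequences, and 6 are printed because the results turn on these genes or, for the last, because it has no such stretch. Each line gives the first 150 coding bases from GENCODE M21 on GRCm38, 5′ to 3′. Capitals mark the 57 bases that encode the most hydrophobic 19 residues among the first 70 of the protein (Kyte-Doolittle scale). They are in capitals only where the mean hydropathy of that window reached 1.6. Galnt9 lies at chr5:110544355-110621380, + strand, B4galt2 at chr4:117869260-117883487, - strand, Mgat5 at chr1:127205015-127488336, + strand, Man2a2 at chr7:80349097-80371375, - strand, St8sia1 at chr6:142821545-142964452, - strand and B3gntl1 at chr11:121616197-121673153, - strand.
Galnt9: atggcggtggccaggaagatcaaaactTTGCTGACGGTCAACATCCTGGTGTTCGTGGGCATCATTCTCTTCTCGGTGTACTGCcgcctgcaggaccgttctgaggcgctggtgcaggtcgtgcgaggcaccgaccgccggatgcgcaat
B4galt2: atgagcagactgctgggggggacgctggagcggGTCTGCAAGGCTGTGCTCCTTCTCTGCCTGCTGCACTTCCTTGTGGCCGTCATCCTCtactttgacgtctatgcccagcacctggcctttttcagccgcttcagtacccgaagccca
Mgat5: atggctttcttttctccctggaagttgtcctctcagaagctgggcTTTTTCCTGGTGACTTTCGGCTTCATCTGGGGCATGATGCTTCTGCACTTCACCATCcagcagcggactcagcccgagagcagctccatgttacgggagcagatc
Man2a2: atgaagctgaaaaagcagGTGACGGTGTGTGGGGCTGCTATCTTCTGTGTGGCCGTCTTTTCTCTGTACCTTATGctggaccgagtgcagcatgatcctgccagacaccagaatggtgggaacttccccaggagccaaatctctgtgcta
St8sia1: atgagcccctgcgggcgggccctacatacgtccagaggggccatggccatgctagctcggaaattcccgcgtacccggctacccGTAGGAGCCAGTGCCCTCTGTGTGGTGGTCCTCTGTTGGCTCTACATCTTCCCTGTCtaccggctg
B3gntl1: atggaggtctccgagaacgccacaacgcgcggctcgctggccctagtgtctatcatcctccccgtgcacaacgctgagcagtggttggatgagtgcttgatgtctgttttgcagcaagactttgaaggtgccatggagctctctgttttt
The mean hydropathy of the capital windows was 2.47 in Galnt9, 2.75 in B4galt2, 1.9 in Mgat5, 2.29 in Man2a2 and 2.28 in St8sia1, and the highest window of B3gntl1 reached 0.947. Of the 76 members, 68 (89.5%) encoded such an N-terminal stretch in their longest complete coding sequence, against 25.6% of 20686 other protein-coding genes. In 59 members (77.6%) it was the only hydrophobic stretch of the protein, against 9.3% of the other genes, and the members' proteins were 302 to 1152 residues long. The window does not separate an anchor from a cleaved signal peptide.

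Gene counts per library were 4368881 to 14335089, of which 10460 to 32697 fell on the members. Mitochondrially encoded genes took 0.93% to 87.3% of the gene counts, most of all in SNF (82.2% to 87.3%), so counts outside the mitochondrial genome were 1819853 to 7115176. Values are normalised read counts (CPM), in which library sizes were scaled with the trimmed mean of M-values (TMM), and 3 counts correspond to 0.203 to 0.863 CPM. The sums of 10 markers per cell type differed between the preparations. The astrocyte marker sum was 2138 to 2697 CPM in WCH, 562.0 to 1309 in TRAP, 13040 to 18120 in SNF and 8850 to 15360 in SynapTRAP. The oligodendrocyte sum was 2661 to 3404, 531.6 to 7100, 7269 to 9558 and 8845 to 21660, and the microglia sum was 68.5 to 81.6, 16.4 to 44.8, 252.0 to 532.7 and 153.1 to 343.8, in the same order. The endothelial sum was 11.9 to 13.5, 8.65 to 47.3, 29.1 to 35.4 and 24.0 to 44.1, and the neuron sum was 9918 to 10850, 9906 to 17310, 9753 to 10580 and 12360 to 13070. None of the 50 markers was at 0 over the libraries of any group. The sum of the neuron markers that define the labelled tissue was at least 9753 CPM in all 12 libraries. In bulk RNA of this kind, fewer cells of a type and less RNA per cell cannot be told apart.

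Of the 76 members, 61 passed the filter on low counts and 15 did not. The 15 were Galnt2, Galnt5, Galnt12, Galnt15, Galntl5, B3gnt2, B3gnt3, B3gnt4, B3gnt6, B3gnt7, B3gnt8, Mgat4d, Mgat4e, St6gal2 and St6galnac1, with 0 to 75 counts over all 12 libraries. Mgat4d, St6gal2 and St6galnac1 had 0 counts, which allows a level of up to 0.203 to 0.863 CPM per library. That limit holds only if their reads could be counted, which the sources used here do not show. The low counts of Galnt2 (1 in all) and B3gnt2 (17) are uncertain, because both share exons with other annotated genes on the same strand, Gm20388 and Gm28048. A gene could pass the filter through 1 group alone, so the 61 are not a sample of all members. Of the 61, 33 shared no exon position with another annotated gene. For the other 28, reads of overlapping or antisense genes were not separable, since no source used here says whether the counting used strand. The 28 include Mgat5, Man2a2, Man1a, Galnt14, Galnt16, St8sia1 and St8sia3, for which the overlap is not repeated below.

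Summed over the 76 members, the level was 1323, 1403 and 1535 CPM in the 3 WCH libraries, 1097, 1516 and 1294 in TRAP, 3010, 3605 and 2840 in SNF and 2042, 2481 and 1809 in SynapTRAP. Every SNF library lay above every library of the other 3 groups, and every SynapTRAP library lay above every WCH and TRAP library, while WCH and TRAP overlapped. As a share of the counts outside the mitochondrial genome, which does not depend on the scaling, the members took 0.338%, 0.344% and 0.375% in WCH, 0.262%, 0.387% and 0.251% in TRAP, 0.575%, 0.653% and 0.553% in SNF and 0.386%, 0.460% and 0.342% in SynapTRAP. On that scale SNF again stood above the other groups, and SynapTRAP overlapped both WCH and TRAP. The St8sia family made the largest sum, at a mean of 278 CPM in WCH and 679 in SNF, followed by the Galnt family at 199 and 491. The smallest sums were those of B3gnt (4.67 and 5.23) and of St6gal (6.86 and 14.8).

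Levels of different genes were compared as CPM per kilobase of exon. In WCH the 5 highest members were B4galt6 (21 ± 3.15, SD, n = 3) and St3gal5 (20.9 ± 1.65), St8sia3 (15.8 ± 2.12), Man1a2 (12.7 ± 1.72) and Galnt9 (10.8 ± 1.70). B4galt6 makes lactosylceramide and St3gal5 (GM3 synthase) sialylates it, so the leading pair are the enzymes of consecutive first steps of ganglioside synthesis. These 2 differed by less than their spread. St8sia3, a brain sialyltransferase that adds sialic acid to sialic acid, lay below both by more than the SD of any of the 3, and Man1a2 and Galnt9 differed by little more than the SD of either. In TRAP the order per kilobase was led by St3gal5 (40.3 ± 18.1), Galnt9 (26.7 ± 6.94), St8sia3 (13.4 ± 1.79) and B4galt6 (12.9 ± 2.5). The first and second of these overlapped within their spread, and so did St8sia3 and B4galt6. St3gal5 also led in SNF and in SynapTRAP, at 50.1 ± 16.6 and 50.1 ± 30.2. In SynapTRAP its spread was wide, since its 3 libraries held 133, 209 and 51.0 CPM.

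**Figure D1:**
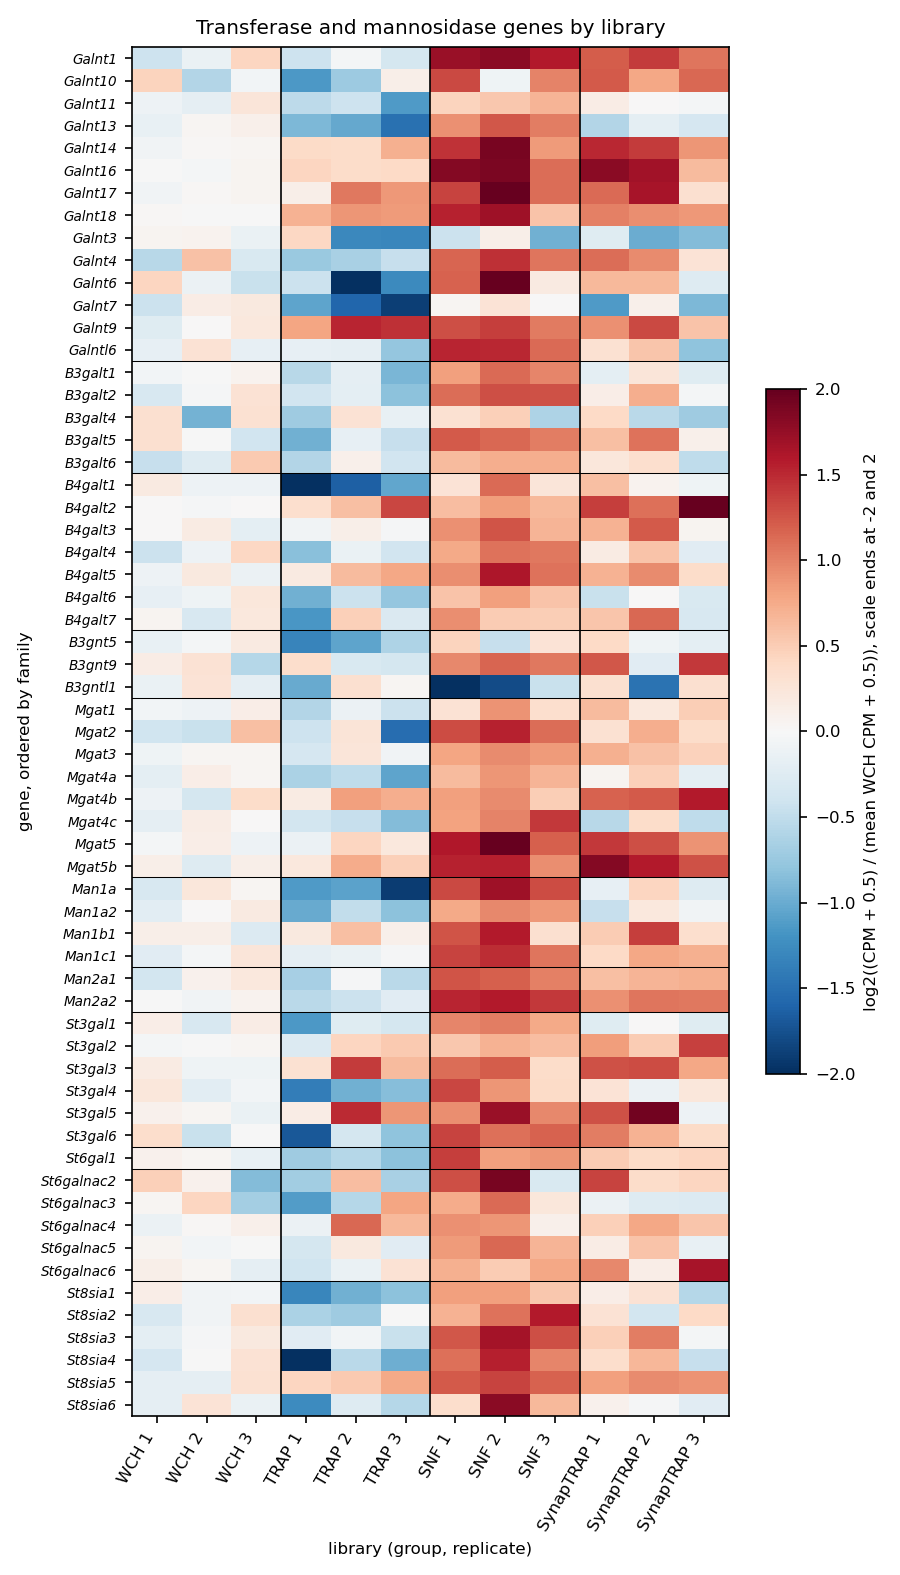
Each row is 1 of the 61 members that passed the filter, ordered by family, and each column is 1 library. Colour is log2 of the CPM plus 0.5 over the WCH mean plus 0.5, cut at −2 and 2, with red above and blue below the WCH mean. With TMM scaling most rows are red in the SNF columns (with scaling by total counts that direction turns), and B3gntl1 is blue in SNF replicates 1 and 2.

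The first comparison, SNF against WCH, addresses which RNAs the synaptic band holds at higher levels than cortex. Members of every family except B3gnt were higher in the band with TMM scaling: 43 of the 61 were called higher (70.5%) and none lower, at an adjusted p under 0.05 in edgeR's quasi-likelihood test over 13404 genes. Over all genes tested, 20.6% were called higher and 16.5% lower. At an unadjusted p under 0.05 in either direction, 52 members passed, B3gntl1 with a lower value among them, against 46.9% of all genes. DESeq2 called 49 higher and 0 lower. Every SNF library lay above every WCH library for 52 of the 61 members, against 25.6% of all genes. The log2 fold change was positive for 59 members, and its median was 1.10, beside −0.25 for all genes. Among the 33 members that share no exon position with another gene, 22 were called higher. Since the group was picked with results of these libraries in view, these values describe it and no test of it was made.

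The direction is relative to the bulk of the other genes. Scaling by total gene counts, in which mitochondrial RNA takes part, placed the median of all genes at −2.60 in place of −0.25 and moved that of the members from 1.10 to −1.25, with 0 members called higher and 47 lower. The median of the members less that of all genes was 1.35. Without SNF replicate 2 the count called higher was 29, and without SNF replicate 3, 1 member was called lower. Markers of non-neuronal cells moved with the members: 9 of 10 astrocyte, 6 of 10 oligodendrocyte, 10 of 10 microglia and 2 of 10 endothelial markers were called higher and none lower, as were 3 of 10 neuron markers, with 2 lower. Their part in the members' change was not tested.

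**Figure D2:**
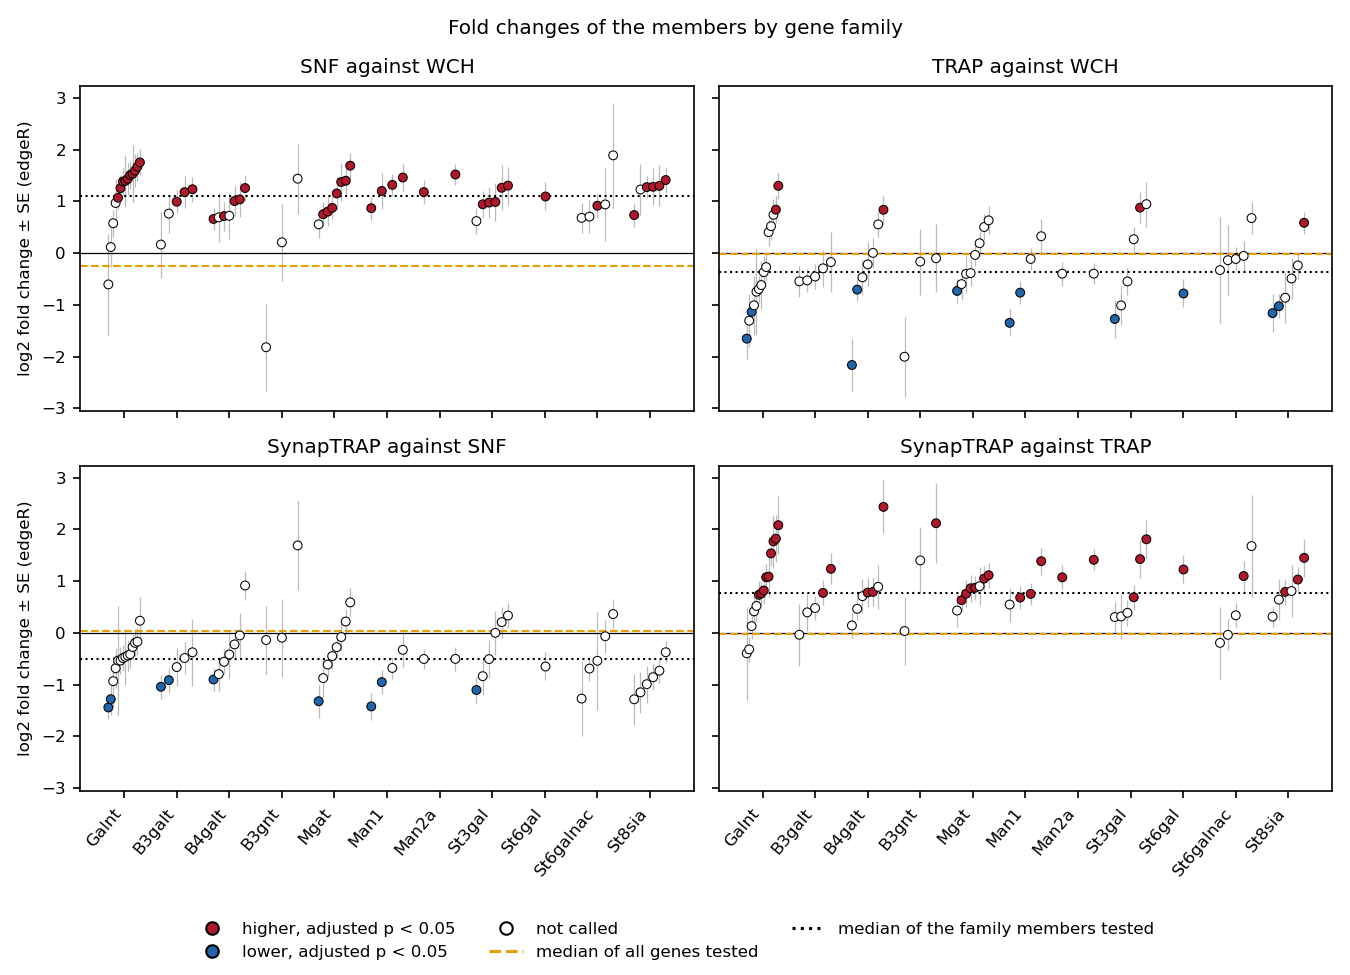
Each point is 1 member's log2 fold change (vertical axis, ± SE, edgeR, TMM scaling) in 1 of 4 comparisons, grouped by family on the horizontal axis. Filled points are called higher (red) or lower (blue). The dotted line is the median of the 61 members and the dashed line that of all genes tested: 1.10 and −0.25 in SNF against WCH (−1.25 and −2.60 with total-count scaling), and 0.78 and −0.02 in SynapTRAP against TRAP (−0.14 and −1.0).

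The enzymes that start O-glycans held 5 of the 8 largest changes called in the band. Of 14 Galnt genes tested, 10 were called higher and none lower, with a median log2 fold change of 1.39. Galnt1, one of the most widely expressed initiating transferases, was at 8.41, 10.4 and 15.5 CPM in the WCH libraries, 8.5, 11.1 and 8.82 in TRAP, 39.1, 41.2 and 35.3 in SNF and 27.0, 30.8 and 24.5 in SynapTRAP. Its SNF libraries lay above all others and its SynapTRAP libraries above WCH and TRAP, and the log2 fold change in SNF was 1.75 (SE 0.25). Galnt16, another member of that family, was at 23.2, 22.8 and 24.3 CPM in the WCH libraries, 31.9, 30.4 and 30.9 in TRAP, 85.5, 87.8 and 51.6 in SNF and 83.0, 76.0 and 36.7 in SynapTRAP. Its SNF and WCH libraries did not overlap (1.67, SE 0.27), and its lowest SynapTRAP library, replicate 3, also stood above every WCH and TRAP library. Galnt17, a brain-rich relative once called Wbscr17, was at 20.8, 22.2 and 22.8 CPM in the WCH libraries, 23.7, 46.1 and 40.4 in TRAP, 56.7, 94.4 and 47.9 in SNF and 48.6, 70.04 and 27.6 in SynapTRAP, with the third replicate lowest in both SNF and SynapTRAP (SNF against WCH 1.59, SE 0.32). Galnt14 followed at 1.51 (SE 0.28). Galnt4, at 1.54 (SE 0.55), rested on 8 to 29 counts per WCH library and 11 to 15 per SNF library. It shares exon positions with Poc1b on the same strand, and it was no longer called when WCH replicate 1 (1.35), WCH replicate 3 (1.36), SNF replicate 1 (1.57) or SNF replicate 2 (1.39) was left out. Galnt3 and Galnt7 were not called, with means of 0.947 and 6.74 CPM in WCH and 0.627 and 7.32 in SNF.

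All 6 trimming mannosidases were called higher in the band. Man2a2, an alpha-mannosidase II that removes the last outer mannoses before complex branching, was at 89.8, 86.5 and 95 CPM in the WCH libraries, 61.9, 67.2 and 77.1 in TRAP, 262, 274 and 243 in SNF and 171, 189.8 and 188 in SynapTRAP. The 3 libraries of each group lay close together, with SNF highest, SynapTRAP next and TRAP lowest, and no group overlapped another (SNF against WCH 1.52, SE 0.20). Man1a, a Golgi alpha-mannosidase I that trims earlier, was at 33.7, 49.1 and 43.1 CPM in the WCH libraries, 18.9, 19.7 and 10.9 in TRAP, 106, 137 and 104 in SNF and 37.4, 56.9 and 34.9 in SynapTRAP. It was highest in SNF (1.46, SE 0.26), lowest in TRAP, and SynapTRAP overlapped WCH. Man1a2, the related enzyme with the highest level per kilobase among the mannosidases of WCH, averaged 101 ± 13.7 CPM (SD, n = 3) in WCH and 185 ± 13.0 in SNF, a log2 fold change of 0.87 (SE 0.23). Man1c1 and Man2a1 averaged 42.0 and 19.2 CPM in WCH and 105 and 43.7 in SNF, and Man1b1, which also serves the disposal of misfolded proteins, averaged 6.30 and 14.6.

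**Figure D3:**
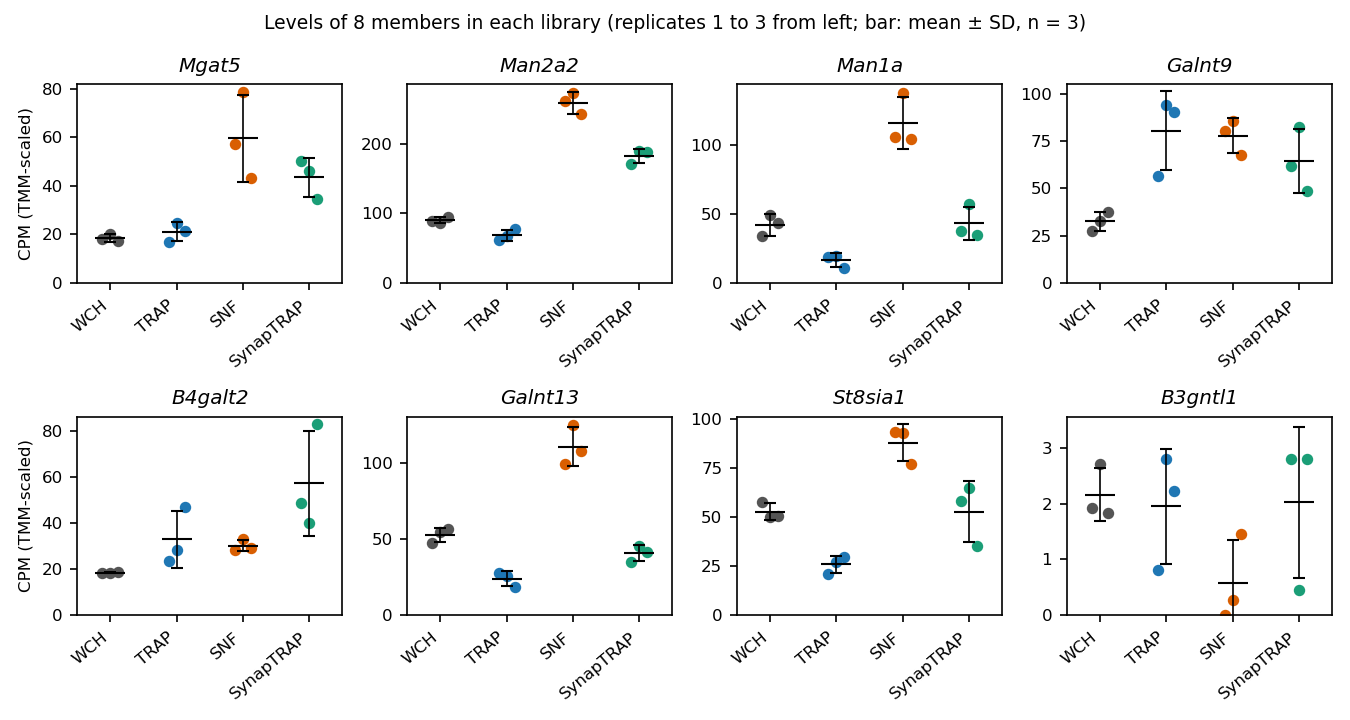
CPM (vertical axis, from 0) of 8 members in each library of WCH, TRAP, SNF and SynapTRAP (TMM scaling), with replicates 1 to 3 from left to right in each group. Bars show the mean and the SD of 3 libraries. Man2a2 separates all 4 groups, Galnt9 and B4galt2 are above WCH in TRAP, Man1a, Galnt13 and St8sia1 are below WCH in TRAP, and B3gntl1 has its lowest library, at 0, in SNF; total-count scaling turns SNF against WCH for Mgat5, Man2a2 and Man1a.

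Of 8 branching enzymes of the Mgat family tested, 7 were called higher in SNF and none lower. Mgat5, which opens the branch that carries long galactose and N-acetylglucosamine repeats, was at 17.9, 20.2 and 17.2 CPM in the WCH libraries, 17.0, 24.9 and 21.5 in TRAP, 57.3, 78.7 and 43.1 in SNF and 50.1, 46.0 and 34.6 in SynapTRAP. WCH and TRAP overlapped, and every SNF library lay above both (1.69, SE 0.25), with SNF replicate 2 well above the other 2. Mgat1, the gateway to complex N-glycans, was not called and averaged 10.7 ± 0.97 CPM in WCH and 15.8 ± 4.07 in SNF. Mgat3, the bisecting enzyme and the highest of the family per kilobase in WCH (7.89), averaged 36.8 ± 1.86 and 67.5 ± 3.73 CPM. Mgat5b, which branches O-mannose glycans in brain, averaged 13.8 ± 2.07 CPM in WCH and 36.5 ± 8.41 in SNF, and 19.6 ± 3.64 in TRAP and 42.3 ± 8.12 in SynapTRAP.

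The galactosyltransferase families had medians below the 1.10 of all members tested. So did Mgat (1.02), St3gal (0.98), St6galnac (0.92) and B3gnt (0.21). Of 7 B4galt genes, 5 were called higher in SNF, with a family median of 0.72, and of 5 B3galt genes, 3 were (median 0.996). B4galt6 was at 109, 114 and 143 CPM in the WCH libraries, 62.7, 91.0 and 71.3 in TRAP, 182, 215 and 182 in SNF and 89.5, 122 and 98.2 in SynapTRAP. Its SNF libraries lay above all others, its TRAP libraries lay below WCH, and the fold change in SNF was 0.66 (SE 0.22). B4galt5, the other lactosylceramide synthase, averaged 25 ± 3.07 CPM in WCH, 36.8 ± 7.54 in TRAP and 59.8 ± 15.9 in SNF. B4galt7 and B3galt6, which build the linker of proteoglycans, were low (means of 3.98 and 4.63 CPM in WCH) and not called, although every SNF library lay above every WCH library for both. B3galt4, which completes the ganglioside GM1, averaged 1.76 ± 0.94 CPM in WCH and 1.98 ± 0.889 in SNF. Of the 3 B3gnt genes tested none was called. B3gntl1, the tested member with the lowest log2 fold change in SNF against WCH (−1.82, not called), was at 25, 40 and 20 counts in WCH and 0, 1 and 6 in SNF, or 1.93, 2.70 and 1.83 and 0, 0.266 and 1.46 CPM. It also shares exon positions with Tbcd on the opposite strand.

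Among the sialyltransferases, 5 of 6 St3gal, 5 of 6 St8sia, the 1 tested St6gal gene and 1 of 5 St6galnac genes were called higher in SNF. St8sia3 was the member with the highest mean CPM in every group, at 162, 182 and 211 CPM in the WCH libraries, 158, 177 and 136 in TRAP, 439, 588 and 451 in SNF and 257, 378 and 181 in SynapTRAP. Its SNF libraries lay above all others (1.41, SE 0.26), WCH and TRAP overlapped, and SynapTRAP ranged from the level of WCH to near that of SNF. St3gal5 was at 58.0, 56.0 and 49.8 CPM in the WCH libraries, 60.4, 155 and 101 in TRAP, 105, 181 and 107 in SNF and 133, 209 and 51.0 in SynapTRAP. Replicate 2 was highest in TRAP, SNF and SynapTRAP, and SynapTRAP replicate 3 lay within the range of WCH (SNF against WCH 1.26, SE 0.44). The polysialyltransferases St8sia2 and St8sia4, which build the chains on NCAM, averaged 3.0 ± 0.78 and 8.54 ± 1.95 CPM in WCH and 7.36 ± 2.43 and 20.8 ± 4.66 in SNF. The GD3 synthase St8sia1 averaged 52.7 ± 4.32 and 87.8 ± 9.49. St6gal1, which caps N-glycans in another linkage, averaged 6.86 ± 0.63 and 14.8 ± 3.41.

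The second comparison, TRAP against WCH, addresses which mRNAs neuronal ribosomes carry in cortex, and here members moved in both directions. Of the 61, 5 were called higher (8.2%) and 11 lower (18%), against 11.1% higher and 10.9% lower over all genes. The share higher was thus near the background and the share lower above it. The median log2 fold change was −0.37 for the members and −0.01 for all genes. Both this comparison and SNF against WCH use the same WCH libraries.

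Galnt9, a brain-rich initiator of O-glycans, had the largest rise, from 27.4, 32.7 and 37.6 CPM in WCH to 56.4, 94.3 and 90.4 in TRAP. The groups did not overlap, and the SNF (80.3, 85.6 and 67.6) and SynapTRAP (62.0, 82.2 and 48.5) libraries overlapped TRAP (TRAP against WCH 1.30, SE 0.24, edgeR adjusted p = 0.000996). St3gal3, which sialylates N-glycan antennae, was at 9.65, 8.04 and 8.07 in WCH and 10.7, 23.4 and 13.5 in TRAP (0.88, SE 0.29, edgeR adjusted p = 0.0356). TRAP replicate 2 stood highest, and without it the value was 0.53 and the call was lost. B4galt2, a galactosyltransferase of N-glycans, was at 18.5, 18.2 and 18.6 in WCH and 23.5, 28.4 and 47.2 in TRAP (0.84, SE 0.27, edgeR adjusted p = 0.0311). Here TRAP replicate 3 stood highest, and without it the value was 0.52 and the call was lost. B4galt2 shares exon positions with Ccdc24 on the same strand and with Slc6a9 on the opposite strand. Galnt18 was at 9.73, 9.46 and 9.44 and 15.8, 17.9 and 17.6 (0.84, SE 0.26, edgeR adjusted p = 0.0227), 2 tight groups that did not overlap. St8sia5, a ganglioside sialyltransferase, rose by 0.59 (SE 0.21, edgeR adjusted p = 0.0467).

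The largest fall was that of B4galt1, the widely expressed galactosyltransferase of N-glycans, from 3.47, 2.77 and 2.75 CPM in WCH to 0.204, 0.634 and 1.20 in TRAP, with 3, 7 and 14 counts in the TRAP libraries (−2.16, SE 0.51, edgeR adjusted p = 0.00496). Its relative B4galt2 thus went the opposite way. Galnt7, which adds N-acetylgalactosamine next to an existing one, was at 4.86, 7.57 and 7.79 in WCH and 2.99, 1.9 and 1.46 in TRAP (−1.65, SE 0.39, edgeR adjusted p = 0.00459). Man1a, with the library values given above, fell by 1.34 (SE 0.26, edgeR adjusted p = 0.00122). St3gal4, a sialyltransferase of N-glycans, was at 4.55, 3.24 and 3.67 in WCH and 1.16, 1.72 and 1.88 in TRAP (−1.27, SE 0.37, edgeR adjusted p = 0.0174). In all of these the TRAP libraries lay below every WCH library. St8sia4 (−1.16), Galnt13 (−1.13), a neuronal initiator of O-glycans, St8sia1 (−1.02) and Man1a2 (−0.76) fell also, as did St6gal1, Mgat4a and B4galt6.

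St3gal5 was not called, with 60.4, 155 and 101 CPM in TRAP, all above WCH but far apart (log2 fold change 0.95, SE 0.43). The neighbouring enzymes of ganglioside synthesis had values in both directions: B4galt6 and St8sia1 were lower in TRAP, St8sia5 was higher, and St3gal5 and B4galt5 did not pass the test. The glial markers called in TRAP were lower: 7 astrocyte, 6 oligodendrocyte and 4 microglia markers of 10 each, with none higher. Of 10 neuron markers, 5 were higher. The oligodendrocyte sum was 531.6 to 7100 CPM in TRAP and 2661 to 3404 in WCH, so it was not lower in every TRAP library. No endothelial marker was called, and the median log2 fold change of those 10 was 1.36. The part of this shift in the members' values was not tested.

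Galnt9, B4galt1, Galnt7, Man1a, Galnt13 and St8sia1 kept their TRAP calls without each library in turn. The number called higher was 1 without WCH replicate 1 or 2, 2 without WCH replicate 3, 3 without TRAP replicate 2 or 3 and 9 without TRAP replicate 1, and the number called lower was 7, 6 and 6 without WCH replicates 1 to 3 and 7 and 6 without TRAP replicates 1 and 3. St3gal3, Galnt18 and B4galt2 lost their calls without any 1 WCH library, St8sia5 without any of WCH replicates 1 and 2, TRAP replicates 2 and 3 and the SNF libraries, St3gal4 without the first replicate of WCH or of TRAP, and St8sia4 and Man1a2 without any of WCH replicates 2 and 3 and TRAP replicates 1 and 3. Without TRAP replicate 1, St8sia4 was at −0.77. With total counts as the scaling, which moved the median of all genes to 0.57, 11 were higher and 1 lower.

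The third comparison, SynapTRAP against TRAP, sets RNA on tagged ribosomes of the synaptic band beside that of the whole cortex. These libraries are separate from those of SNF and WCH, but same-numbered SNF and SynapTRAP libraries deviated together (r 0.202 to 0.343). Of the 61 members, 34 were called higher (55.7%) and none lower in SynapTRAP, against 21.6% higher and 18.1% lower over all genes. DESeq2 gave 34 and 0, and 40 members passed at an unadjusted p under 0.05 in either direction, against 48% of all genes. Every SynapTRAP library lay above every TRAP library for 32 members, against 21.4% of all genes. The median log2 fold change was 0.78, beside −0.02 for all genes. With total counts as the scaling, which put the median of all genes at −1.0, 1 member was called higher and 2 lower.

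B4galt1 again had the largest value, with 0.204, 0.634 and 1.20 CPM in TRAP and 4.81, 3.19 and 2.8 in SynapTRAP (2.43, SE 0.51, edgeR adjusted p = 0.000769). SynapTRAP lay around the level of WCH (3.47, 2.77 and 2.75), and TRAP lay below both. B3gnt5, which starts a class of glycolipid chains, rested on 1, 2 and 5 counts in TRAP and 17, 11 and 5 in SynapTRAP (2.12, SE 0.77, edgeR adjusted p = 0.0332). It was no longer called without any 1 WCH library, or without TRAP replicate 1 or 2 or SynapTRAP replicate 1 or 2. Galnt4 was at 0.476, 0.544 and 0.685 CPM in TRAP and 3.05, 2.66 and 1.47 in SynapTRAP (2.08, SE 0.56, edgeR adjusted p = 0.00578). Galnt10, another initiator of O-glycans, was at 0.884, 1.36 and 2.83 and 6.74, 4.78 and 6.34 (1.82, SE 0.46, edgeR adjusted p = 0.00332). In each of these 4 genes the groups did not overlap, although all 4 are low in TRAP. St3gal6 (1.81), a sialyltransferase of N-glycans, Galnt6 (1.77), Galnt1 (1.54) and St8sia4 (1.45) rose also, and Galnt6 lost its call without SynapTRAP replicate 1.

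By role, 9 of 14 Galnt, 3 of 4 Man1, 2 of 2 Man2a, 6 of 8 Mgat, 3 of 7 B4galt, 2 of 5 B3galt, 1 of 3 B3gnt, 3 of 6 St3gal, 1 of 1 St6gal, 1 of 5 St6galnac and 3 of 6 St8sia genes were called higher in SynapTRAP than in TRAP. Of the 5 genes called higher in TRAP over WCH, St3gal3 averaged 19.5 ± 3.83 CPM in SynapTRAP, Galnt18 18.7 ± 0.952 and St8sia5 50.6 ± 2.31, and none of them was called between SynapTRAP and TRAP. B4galt2, at 48.8, 40.1 and 83.2 CPM in SynapTRAP, was called higher there than in TRAP although 1 SynapTRAP library lay within the range of TRAP. Astrocyte, oligodendrocyte and microglia markers were also higher in SynapTRAP than in TRAP (10, 8 and 10 of 10 called), as was 1 of 10 endothelial markers, and neuron markers were split (2 higher, 3 lower). Their part in the members' values was not tested.

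The fourth comparison, SynapTRAP against SNF, addresses which RNAs of the band tagged ribosomes carried. No member was called higher and 9 were called lower (14.8%), against 2.29% higher and 1.79% lower over all genes. At an unadjusted p under 0.05 in either direction, 26 of the 61 members passed, against 19.6% of all genes. The median log2 fold change was −0.51 for the members and 0.03 for all genes. Galnt13 had the largest fall, from 99.6, 125 and 108 CPM in SNF to 35.1, 45.8 and 41.4 in SynapTRAP, which put it below every WCH library (−1.44, SE 0.22, edgeR adjusted p = 0.00417). Man1a, with the values above, fell by 1.42 (SE 0.26, edgeR adjusted p = 0.00646). Mgat4c, a relative of the branching enzymes, was at 12.1, 13.8 and 18.7 in SNF and 4.41, 8.73 and 4.57 in SynapTRAP (−1.32, SE 0.32, edgeR adjusted p = 0.0231). Galntl6, a Galnt relative, was at 28.5, 28.2 and 21.7 and 12, 14.4 and 5.31 (−1.28, SE 0.31, edgeR adjusted p = 0.0234). No SynapTRAP library of these 4 genes reached the lowest SNF library. St3gal1 (−1.10), which caps O-glycans, B3galt1 (−1.04), Man1a2 (−0.95), B3galt2 (−0.91) and B4galt6 fell also.

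These falls were sensitive to single libraries: the number called lower was 3 without SNF replicate 1 and 2 without SNF replicate 2, SNF replicate 3 or SynapTRAP replicate 1. Galnt13 and Man1a kept their calls without each library in turn. With a replicate block 13 members were called lower and 1 higher, and same-numbered SNF and SynapTRAP libraries deviated together (r 0.202, 0.245 and 0.343). DESeq2 called 17 members lower and 0 higher, and without SynapTRAP replicate 2, 1 member was called higher. With only the SNF and SynapTRAP libraries in the fit, Man1a2 and B3galt2 were no longer called. With total counts as the scaling, which put the median of all genes at 1.98 in place of 0.03, 51 members were called higher and 0 lower. In the same comparison 2 of 10 oligodendrocyte markers, 1 of 10 microglia markers and 0 of 10 astrocyte markers were called lower, and 2 of 10 neuron markers higher.

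The effect of the immunoprecipitation in the band was set against its effect in cortex as an interaction term. Of the 61 members, Galnt9 alone (1.64%) was called (−1.58, SE 0.34, edgeR adjusted p = 0.0332), against 0.865% of all genes called in either direction. With 1 member called, the share is near the background. Galnt9 was higher in TRAP than in WCH in every library, while SynapTRAP (62.0, 82.2 and 48.5 CPM) overlapped SNF (80.3, 85.6 and 67.6). It was no longer called without WCH replicate 1 (−1.61), 2 (−1.57) or 3 (−1.69), TRAP replicate 2 (−1.58), SNF replicate 1 (−1.55) or 2 (−1.50) or SynapTRAP replicate 1 (−1.68), and 2, 3 and 4 members were called lower without SNF replicate 3, SynapTRAP replicate 2 and TRAP replicate 1. With total counts as the scaling, which put the median of all genes at 1.46 in place of 0.07, Galnt9 was at −0.12 and not called, and 22 members were called higher.

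Other genes of glycosylation were described from 6 lists, first in SNF against WCH with TMM scaling. With total-count scaling 11441 of all 13404 genes were called lower in SNF and 11 higher, so each direction here is relative. Of 50 other Golgi transferases tested, 40 were higher and 0 lower, with a median log2 fold change of 1.09, close to the 1.10 of the members. The largest were the carbohydrate sulfotransferases Chst12 (2.07), Chst2 (1.79) and Chst8 (1.79). Of 15 nucleotide sugar transporters, which carry the sugar donors into the Golgi, 9 were higher and 0 lower (median 1.06), led by the UDP-galactose transporter Slc35a2 (1.6), Slc35e1 (1.55) and the GDP-fucose transporter Slc35c1 (1.47). Of 35 genes of N-glycan assembly in the endoplasmic reticulum, 25 were higher and 0 lower (median 1.26). Among them were the glucosidase II subunit Prkcsh (2.05) and the oligosaccharyltransferase subunits Rpn1 (2.01) and Rpn2 (1.9). Of 16 lysosomal and other mannosidases, sialidases and related hydrolases, 10 were higher and 0 lower (median 1.18), among them the lysosomal enzymes Man2b1 (2.18) and Glb1 (1.93).

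The 2 lists of mostly soluble or peripheral proteins had other values in the same comparison. They also hold membrane-anchored proteins, such as Uxs1 and Golgb1, and were not sorted by anchor. Of 20 cytosolic and nuclear enzymes that make sugar nucleotides, 1 was higher and 5 lower, with a median of −0.67 beside −0.25 for all genes. Uxs1 (1.14), a UDP-xylose synthase, was the one called higher, and Gfpt2 (−2.06), Uap1 (−0.96) and Fpgt (−0.88) were lowest. Of 47 cytosolic Golgi tethers and coat proteins, 0 were higher and 6 lower (median −0.34), among them Golga1 (−1.15), Blzf1 (−0.98) and Golph3 (−0.78). In SynapTRAP against TRAP, the counts higher and lower were 25 and 0 of the other Golgi transferases, 6 and 0 of the transporters, 16 and 2 of the N-glycan assembly genes and 9 and 1 of the hydrolases, while sugar nucleotide enzymes had 2 and 9 and tethers and coats 2 and 10. Uxs1 (1.20) and Ugp2 (1.13) were the sugar nucleotide enzymes called higher. The 2 tethers called higher were Golga4 (0.85) and Golgb1 (0.78), or giantin. The difference between lists was not tested.

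**Figure D4:**
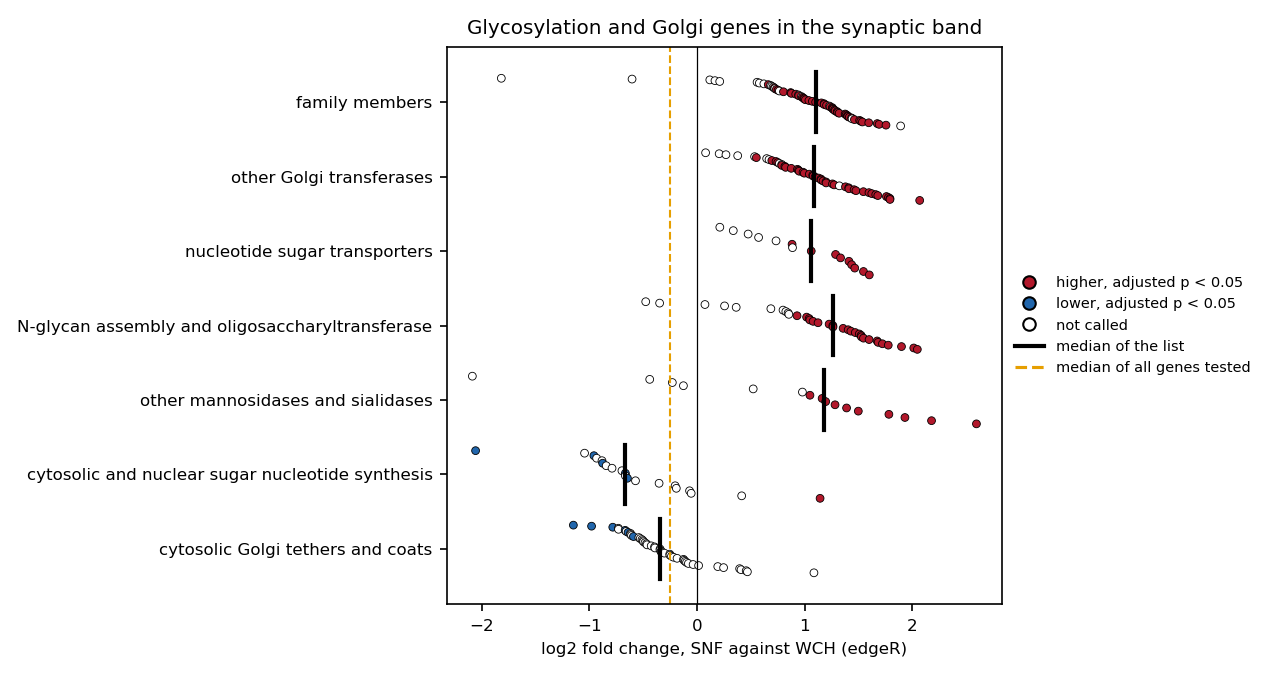
Each point is a gene's log2 fold change in SNF against WCH (horizontal axis, edgeR, TMM scaling; total-count scaling shifts all points toward lower values), in 7 lists on the vertical axis. Red and blue points are called higher and lower, black bars are list medians, and the dashed line is the median of all genes tested, −0.25. The members (1.10) and 4 lists of membrane or lumenal enzymes have medians of 1.06 to 1.26, and the 2 cytosolic lists have medians of −0.67 and −0.34.

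The members were then set beside all other genes with the same kind of hydrophobic stretch in the predicted protein. In SNF against WCH, 33 of 47 tested members with an N-terminal stretch only were called higher (70.2%), against 56.3% of 845 genes outside the family in that class. With an N-terminal and a later stretch the shares were 6 of 8 members (75%) and 69.6% of 1308 other genes. Among other genes with no stretch, 5.7% of 8211 were called higher and 22.7% lower. The 5 tested members without a stretch by this rule were B3gntl1, Galnt11, Galnt16, Mgat4a and St8sia4, of which 3 were called higher. Galnt16 missed the minimum with a window of 1.59, and St3gal5 has only a later stretch in its longest coding sequence. The median log2 fold change of members with an N-terminal stretch only was 1.07, beside 1.15 for other genes of that class.

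The same classes gave 26 of 47 members (55.3%) and 45.1% of other genes called higher in SynapTRAP against TRAP for an N-terminal stretch only. With both kinds of stretch, 4 of 8 members and 52.6% of other genes were called higher. With no stretch, 11.9% of other genes were called higher, but 4 of 5 members were. That is a larger share of members than with an N-terminal stretch only, although it rests on 5 genes. In SynapTRAP against SNF, 8 of 47 members (17.0%) with an N-terminal stretch only were called lower, beside 3.2% of other genes of the class and 0.2% of other genes with no stretch. In TRAP against WCH, 10.7% of other genes with an N-terminal stretch only were called higher and 9.0% lower, beside 9.1% and 14.7% with both kinds of stretch, 11.2% and 11.2% with a later stretch only and 12% and 10.0% with no stretch. No difference between members and other genes of a class was tested.

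**Figure D5:**
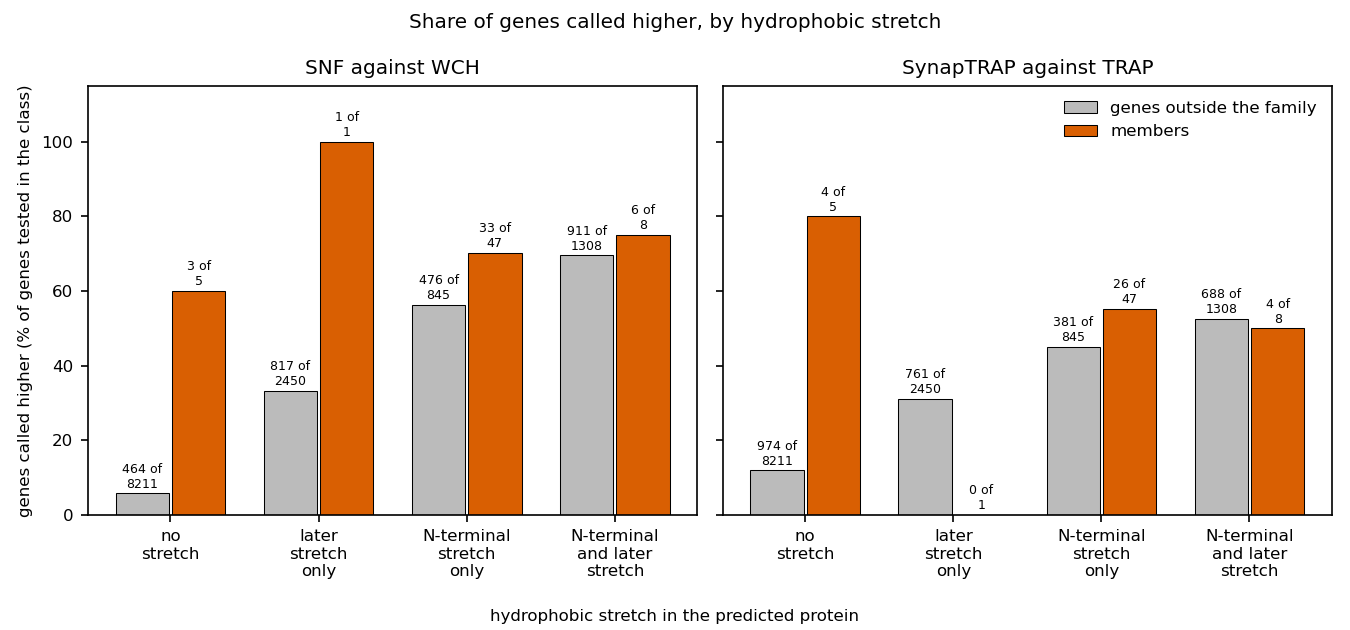
Bars show the percent of tested genes called higher (vertical axis, from 0) in 4 classes of hydrophobic stretch, for genes outside the family (grey) and members (orange), with TMM scaling. Numbers above the bars are genes called of genes tested. In SNF against WCH the share among other genes goes from 5.7% with no stretch to 69.6% with both kinds, and the members with an N-terminal stretch only are at 70.2%; with total-count scaling no member is called higher there.

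The authors' deposited tables of selected genes were searched for the members. In the authors' deposited table of genes enriched in SNF, 52 of 3508 genes were members. That is 68.4% of the 76 members, beside 11.7% of all 29879 genes with counts. Those 29879 include noncoding genes, while every member is protein-coding, so the sets are unlike. The authors' cut-off was also looser than 0.05, with B3gnt9 listed at an FDR of 0.0989 by their likelihood-ratio test. In the authors' deposited tables of 109 candidates for local translation and 275 for somatic translation, 0 were members. Members are 0.254% of all genes, so a count of 0 in tables of these sizes is near the background.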

How the data were processed

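RNA-seq libraries of 4 preparations of mouse cortex, 3 each, were analysed. The table the authors deposited holds an integer read count for each gene in each library. The submitters' processing notes name Bowtie2, STAR, HTSeq and edgeR without versions, and per the labels' protocols a NuGEN kit made the cDNA. Genome build, annotation and strand setting: not given in the sources used here. Summary lines for reads not assigned to a gene were left out. They held no-feature, ambiguous, low-quality, unaligned and non-unique reads, together 19.3% to 58.3% of reads. The authors' deposited tables hold log2 fold changes, likelihood-ratio scores and p-values of selected genes, used only to look up members. Symbols, coordinates, exon lengths and coding sequences came from GENCODE M21 (GRCm38).

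One edgeR 4.0.16 model (R 4.3.3) held all 12 libraries, with the default filter (13404 genes kept), TMM scaling and the robust quasi-likelihood test of 5 contrasts, adjusted by Benjamini-Hochberg over all genes tested and called under 0.05. The fit was also run on simulated counts, with a small set of genes changed in SNF and otherwise the same composition in all libraries. The large differences in mitochondrial share were not simulated, so the run does not bear on the choice of scaling. CPM use the TMM-scaled library size and SE comes from the F statistic. The chi-square per gene between replicates of a group was 11.9 to 349, above counting error. It was scaled by total gene counts, so shifts in the mitochondrial share are part of it. Spearman correlations of the replicates were 0.937 to 0.984. Members given with fold changes are the called ones, at most the 8 largest per direction and comparison. Values of every library are shown for at most the 4 largest. The 5 highest per kilobase in WCH are described besides these, with fold changes whether called or not. Genes of the lists are at most the 3 largest called per direction, and 1 item is not reported here. Man2a2, St8sia1 and B3gntl1 are also shown by library, chosen after their values were seen, and B3gntl1 is given with an uncalled fold change. The main fit paired no libraries, and the replicate block spanned all 12. Pairing by replicate number was considered only between SNF and SynapTRAP, where the deviations of all 3 same-numbered pairs correlated above 0.1. The labels state no shared source. The members and lists were chosen with earlier results of these data known. Alternatives were RLE factors, total counts, no mitochondrial genes, no filter, DESeq2 1.42.0, a replicate block, only the groups compared, and leaving out each library.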

Additional observations from a re-analysis of the deposited data

Results flagged for a closer look

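Galnt9 was flagged because the immunoprecipitation effect differed between the band and the cortex by a test of the difference itself (−1.58 on the log2 scale, edgeR adjusted p = 0.0332). It was the only one of the 61 members called (1.64%), a share near the 0.865% of all genes. Its level was 27.4, 32.7 and 37.6 CPM in WCH, 56.4, 94.3 and 90.4 in TRAP, 80.3, 85.6 and 67.6 in SNF and 62.0, 82.2 and 48.5 in SynapTRAP. The call did not hold without 7 of the 12 libraries, each left out in turn. With total counts as the scaling the value was −0.12 and not called.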

How the results depend on the processing

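The median of the members less that of all genes kept its sign in all 5 contrasts under every alternative run, which for the interaction leaves out the fit of only the groups compared. A change of scaling moves all genes by nearly the same amount, so RLE factors and total counts could hardly change this difference. In SNF against WCH it was 1.35 with TMM, with RLE factors and with total counts. Leaving out each library in turn gave 29 to 48 members higher and 0 to 1 lower in SNF against WCH, 1 to 9 and 6 to 13 in TRAP against WCH, 0 to 1 and 2 to 13 in SynapTRAP against SNF, 24 to 34 and 0 to 0 in SynapTRAP against TRAP, and 0 to 4 lower in the interaction. Total counts as the scaling gave 0 and 47, 11 and 1, 51 and 0, 1 and 2, and 22 and 0 in the same order. It reversed, in SNF against WCH, Galnt1 (−0.55), Mgat5 (−0.66), Galnt16 (−0.69), Galnt17 (−0.73), Galnt4 (−0.80), Man2a2 (−0.83), Galnt14 (−0.83) and Man1a (−0.87), and in SynapTRAP against SNF, Galnt13 (0.53), Man1a (0.61), Mgat4c (0.72), Galntl6 (0.82), St3gal1 (0.89), B3galt1 (0.96), Man1a2 (1.03) and B3galt2 (1.13). RLE factors moved the median of all genes in SNF against WCH from −0.25 to −0.12, in SynapTRAP against SNF from 0.03 to −0.08 and in the interaction from 0.07 to −0.06 and reversed no named member. Total-count scaling counts the mitochondrial RNA, 0.93% to 87.3% of a library. Without the low-count filter 1 member was lower in SNF, 1 higher in SynapTRAP against SNF and 2 lower in the interaction, and Galnt4 in SNF against WCH, St8sia5 in TRAP against WCH and B3gnt5 in SynapTRAP against TRAP were no longer called. DESeq2 gave 17 lower in SynapTRAP against SNF and 4 in the interaction. With only the groups compared, 52 were higher and 1 lower in SNF, and 8 higher and 10 lower in TRAP. The same setting gave 26 higher in SynapTRAP against TRAP and 6 lower in SynapTRAP against SNF, where Man1a2 and B3galt2 lost their calls. The replicate block gave 1 higher in SynapTRAP against SNF, and 44 higher in SNF, 7 higher and 12 lower in TRAP, 13 lower in SynapTRAP against SNF and 35 higher in SynapTRAP against TRAP. Same-numbered deviations correlated at 0.002 to 0.343, with 7 of 18 over 0.1, the 3 of SNF with SynapTRAP among them. No other pair of groups had all 3 over 0.1. Depth limits members with few counts, most of all in SNF, where 3 counts are 0.73 to 0.863 CPM. The causes of these changes were not tested.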
